A study of Homo sapiens with 16 samples.

Results

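The regions described here are all 195421 H3K27Ac regions, 15.6% of the 1255311 regions in the 7 deposited tables, in which DKO cells were set against HCT116 cells. No region was chosen by its value: every row of the H3K27Ac table was a member, and the log2 ratio of the normalized read densities, DKO over HCT116, was the measure. HCT116 is a human colorectal carcinoma cell line. DKO, given in the labels by that name alone, is known as a clone made from HCT116 by disrupting both DNMT1 and DNMT3B, enzymes that methylate DNA, so that much of its DNA methylation is lost. Both lines grew in the same medium, and neither was treated. The series held 16 samples, of which 1 H3K27Ac library from each line was compared here. The other 6 targets were RAD21 and SMC1 (subunits of cohesin), CTCF, and RNA polymerase II as Pol2Ser5, Pol2Ser2 and TotalRNAPol2. For TotalRNAPol2 the antibody label names Pol2Ser5, although the title speaks of total polymerase.

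Acetylation of lysine 27 of histone H3 is placed by the coactivator acetyltransferases p300 and CBP and marks nucleosomes at active promoters and active enhancers. The same lysine can instead be methylated by a Polycomb repressive complex, and a residue cannot carry both marks at once. Acetylated nucleosomes flank sites of transcription factor binding, and enhancers that lie close together can form long acetylated domains. DNA methylation is usually low at active promoters and enhancers.

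The deposited values fitted whole reads counted in a window of 2 kb around each midpoint, with 1 added to each count. This window was inferred from the values and is stated in no label or header. The median region carried 78 reads in DKO (quartiles 52 and 116) and 94 in HCT116 (65 and 133). The window is wider than most regions, and 78.5% of them lay within 1 window of a neighbour and shared reads with it. For regions wider than 2 kb, the reads and the ratio describe only the window at the midpoint. A log2 ratio of 1 or more is called higher in DKO and one of -1 or less higher in HCT116, a 2-fold difference. A region is called similar when its log2 ratio lies within 0.5 of 0. Each line had 1 library, so the spread between replicates is unknown and no test was made. All differences below are between these libraries, and intervals of a ratio cover counting error only. Wilson intervals of a share treat regions as independent, which neighbours that share reads are not. A difference in the number of DNA copies between the lines cannot be told apart from a difference in acetylation at a region, since the input libraries were not used here. No annotation of hg19, the build of the coordinates, was used here, so regions are given by position and not by gene.

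H3K27Ac was higher in DKO at 21454 regions (11.0%) and higher in HCT116 at 20404 regions (10.4%), while 103991 regions (53.2%) were similar. The median log2 ratio over the table was -0.05, with quartiles at -0.49 and 0.42. At a 4-fold difference these counts were 6391 regions (3.27%) and 5249 regions (2.69%). The exact 95% counting interval of the ratio lay wholly past 2-fold at 11230 regions (5.75%) in the direction of DKO and at 9309 (4.76%) in that of HCT116. Differences in both directions were thus nearly balanced in number. Which direction had more regions depended on the scaling: with the same shift at all densities in place of the authors' density-dependent line, the counts were 19859 toward DKO and 22736 toward HCT116.

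**Figure D1:**
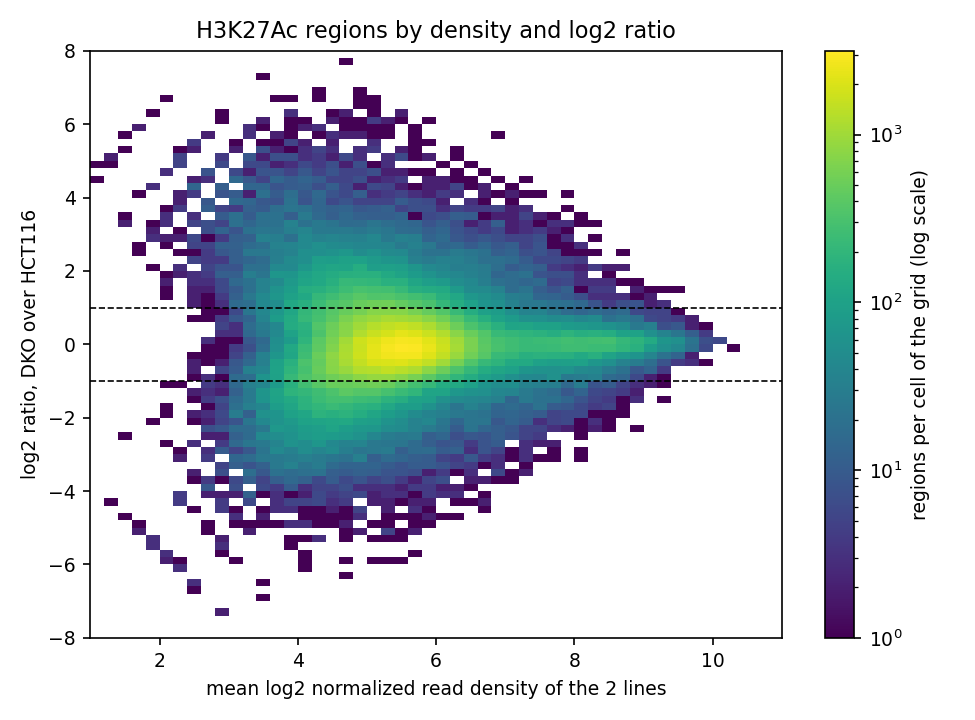
Each cell of the grid counts H3K27Ac regions by mean log2 density (x axis) and log2 ratio of DKO over HCT116 (y axis), with color on a log scale and dashed lines at 2-fold. Most regions lie between the lines (median log2 ratio -0.05), and the spread narrows toward high mean density.

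Regions far from equal were mostly called in 1 line. The median counts at regions 4-fold higher in DKO were 121 reads in DKO against 21 in HCT116, and 89.0% of these regions had been called in DKO only. At regions 4-fold higher in HCT116 they were 16 and 123 reads, and 89.9% had been called in HCT116 only. A call in 1 line alone did not imply a large difference. Of the 56180 regions called in DKO only, 31.6% were 2-fold higher in DKO and 42.1% were similar, with a median log2 ratio of 0.61. Of the 77226 called in HCT116 only, 22.2% were 2-fold higher in HCT116 and 50.1% were similar, with a median of -0.48. The 62015 regions called in both had a median of -0.01, and 5.88% were higher in DKO and 5.21% in HCT116. The group in which a region was called is set by the same reads as the ratio, so these shares describe the table.

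The difference at regions called in 1 line grew with the width of the region. Regions called in DKO only had a median log2 ratio of 0.53 when narrower than 500 bp, 1.25 from 500 to 1000 bp, 2.19 from 1000 to 2000 bp and 3.07 from 2000 to 5000 bp. The 27 that spanned 5000 bp or more had a median of 3.91, with 471 reads in DKO and 33 in HCT116. Regions called in HCT116 only mirrored this order, from -0.42 in the narrowest class through -0.80, -1.67 and -2.88 to -4.25 at the 59 widest, whose medians were 21 reads in DKO and 521 in HCT116. Wide regions called in 1 line alone were few, and their medians were the farthest from 0 of any width class. Width and call rest on the same libraries as the ratio, so this order is partly set in advance and describes the table. Regions called in both lines showed no such order, with medians of 0.02, 0.003, -0.04, -0.03 and 0.01 from narrowest to widest. Among all 2763 regions of 5000 bp or more, 14.5% were higher in DKO and 16.2% in HCT116, against 9.87% and 8.94% of the regions narrower than 500 bp.

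The share past 2-fold was highest where the mean density was low. In the lowest of 5 classes of equal size by mean log2 density, 20.8% were higher in DKO and 25.0% in HCT116. In the next 3 classes the shares were 11.5% and 10.6%, 8.27% and 6.08%, and 6.54% and 4.63%. In the class of highest density they were 7.80% and 5.93%. A mean is low for a region that is absent from 1 line, and the order changed when classes were built on the higher of the 2 densities. Then the lowest class held 9.45% higher in DKO and 12.8% higher in HCT116, and the highest class 16.6% and 11.5%. Of the regions in that highest class 49.2% were similar.

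**Figure D2:**
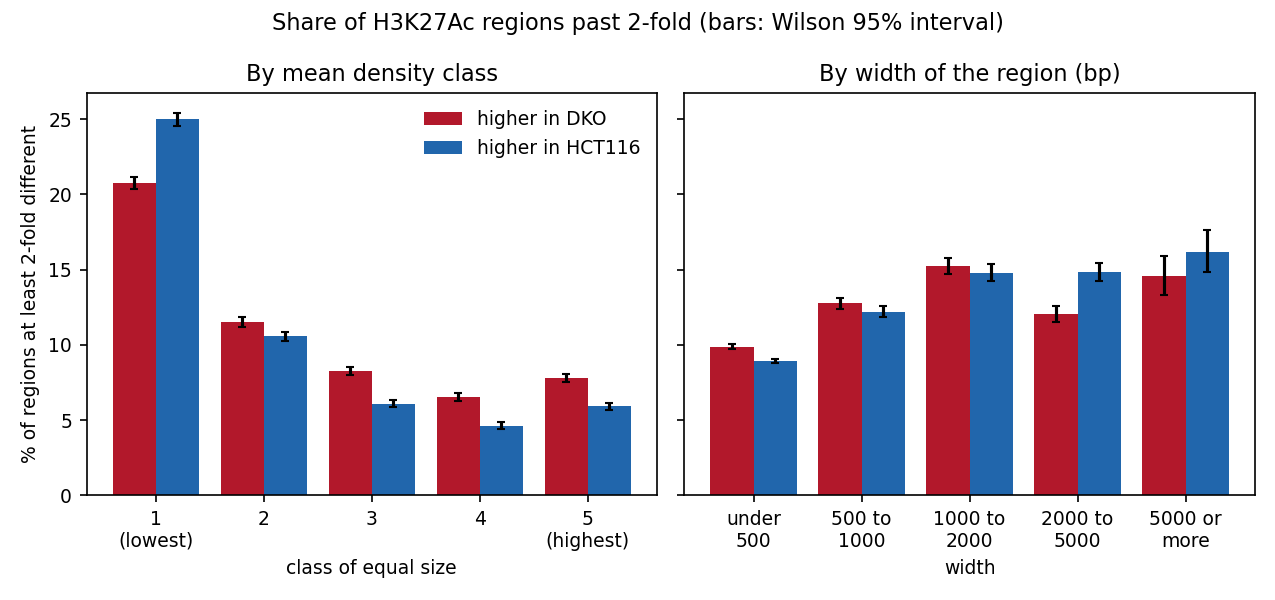
Bars give the percentage of H3K27Ac regions at least 2-fold higher in DKO (red) and in HCT116 (blue), by class of mean density (left) and by width in bp (right), with Wilson 95% intervals. The lowest density class stands highest (20.8% and 25.0%), and regions of 5000 bp or more lie above the narrowest ones (14.5% and 16.2%).

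The regions with the largest ratios toward DKO had almost no reads in HCT116. The region chr9:25677001-25679237, 2236 bp wide, held 717 reads in DKO and 3 in HCT116, a log2 ratio of 7.77 (95% interval 6.63 to 10.46). It was 1 of 3 regions in its 2 Mb bin. At chr14:106938125-106938811 the counts were 261 and 1 reads (log2 ratio 7.39), in a string of 9 consecutive regions all higher in DKO. Next came chr5:2748817-2751592 with 384 and 3 reads (6.90). Each of them had been called in DKO only.

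The next regions in that order were chr10:132098236-132100493 with 585 and 5 reads (log2 ratio 6.88), chr1:142618110-142619789 with 346 and 3 reads (6.75), and chr5:18744967-18748063 with 518 and 5 reads (6.71). They were followed by chr18:65084719-65085897 with 233 and 2 reads (6.63) and chr2:2187756-2191491 with 652 and 7 reads (6.60). The last 2 were chr4:123835-126057 with 633 and 7 reads (6.56) and chr12:133706208-133707747 with 530 and 6 reads (6.51). All 10 had been called in DKO only, and all 10 overlapped a Pol2Ser5 region and a TotalRNAPol2 region that were also higher in DKO. The log2 ratio of Pol2Ser5, the polymerase form enriched near promoters, ranged from 3.07 on chromosome 18 to 5.97 on chromosome 14. CTCF, an insulator protein that binds many of its sites less well once they are methylated, overlapped 5 of the 10, with log2 ratios from 1.92 on chromosome 5 to 3.04 on chromosome 9. Both single regions with no neighbour within 50 kb, on chromosomes 2 and 4, overlapped no CTCF region.

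The largest ratios toward HCT116 included regions with no read in DKO. The region chrX:28605498-28610799 held 0 reads in DKO and 202 in HCT116, and was at least 51.2-fold lower in DKO when its count is set to the floor of 3 reads. The region chrX:10546479-10549496 held 0 and 198 reads and was at least 50.2-fold lower. It overlapped no region of the other 6 targets. In all, 26 regions had 0 reads in DKO: 11 on chromosome X, 14 of the 18 regions on chromosome Y and 1 on an autosome. Those on Y included chrY:2802855-2804155, with 0 and 133 reads and a bound of 33.3-fold. In HCT116 13 regions had 0 reads, all of them autosomal. Absence of reads in DKO thus fell on the sex chromosomes at 25 of 26 regions, and missing DNA cannot be told apart from a missing mark there.

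Autosomal regions far higher in HCT116 kept a few reads in DKO. At chr10:92072120-92074924 the counts were 1 and 286 reads (log2 ratio -6.82), and at chr7:120940733-120944768 they were 4 and 484 (-6.31, 95% interval -8.51 to -5.27). The region on chromosome 7 lay in a string of 35 consecutive regions all higher in HCT116, and its CTCF, RAD21, SMC1 and Pol2Ser5 log2 ratios were -3.56, -3.79, -3.15 and -4.96. Of the 10 lowest regions 9 lay in strings of 8 or more regions, and the 1 on chromosome Y in a string of 2. The region chr5:91894285-91899208 had 5 and 457 reads (-5.97) in a string of 10, chr1:66814508-66819423 had 3 and 309 reads (-5.96) in a string of 37, and chr10:28405027-28417679, 12652 bp wide, had 9 and 732 reads (-5.96) in a string of 60. The region chrX:28519255-28527591 held 3 and 323 reads (-6.03), and chr4:11613326-11619380 held 7 and 575 reads (-5.91).

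Regions called in both lines could also differ widely. The highest of them, chr2:113565666-113575066, held 1397 reads in DKO and 64 in HCT116, a log2 ratio of 4.56 (95% interval 4.22 to 4.96). The lowest, chr4:75227978-75235191, held 37 and 1020 reads (-4.58, interval -5.13 to -4.15), and its Pol2Ser5, Pol2Ser2 and TotalRNAPol2 log2 ratios were -6.40, -5.07 and -4.77. At the other extreme were the strongest regions that were similar between the lines. The region chr8:145006343-145029772, 23429 bp wide, had 2686 reads in each line in the 2 kb window at its midpoint (log2 ratio -0.06). The regions chr17:79476334-79487948 (2420 and 2195 reads, 0.10) and chr8:145731096-145739112 (2277 and 2152 reads, 0.04) followed. These 3 were picked for similarity and density, and show how high both lines reached together.

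Neighbouring regions tended to differ in the same direction. For neighbours 2 to 5 kb apart, whose midpoints lie more than 1 inferred window apart, Spearman's rho of the log2 ratios was 0.62 over 35014 pairs, and it was 0.42 at 5 to 10 kb (14514 pairs), 0.32 at 10 to 20 kb (10681 pairs) and 0.26 at 20 to 50 kb (10638 pairs). Within 2 kb it was 0.90 over 114151 pairs, which count partly the same reads. These are descriptions over pairs of regions that share their libraries and scaling. Beside a region higher in DKO, the neighbour 2 to 5 kb away was also higher in DKO in 51.3% of cases and higher in HCT116 in 0.703%. Beside a region higher in HCT116, the same held for 54.3%, and the opposite for 0.620%.

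Shares of neighbours in the same direction stayed above those of the whole table at long distances. For neighbours 100 to 1000 kb apart, 45.4% of those beside a region higher in DKO were also higher in DKO and 12.5% were higher in HCT116. Beside a region higher in HCT116, 31.5% were also higher in HCT116 and 17.1% higher in DKO. Pairs that far apart lie in stretches with few regions, so these shares describe sparse parts of the genome. With 1 region kept per window, 104706 regions remained, 11.2% of them higher in DKO and 11.1% in HCT116, and rho at 2 to 5 kb was 0.64 over 54147 pairs.

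**Figure D3:**
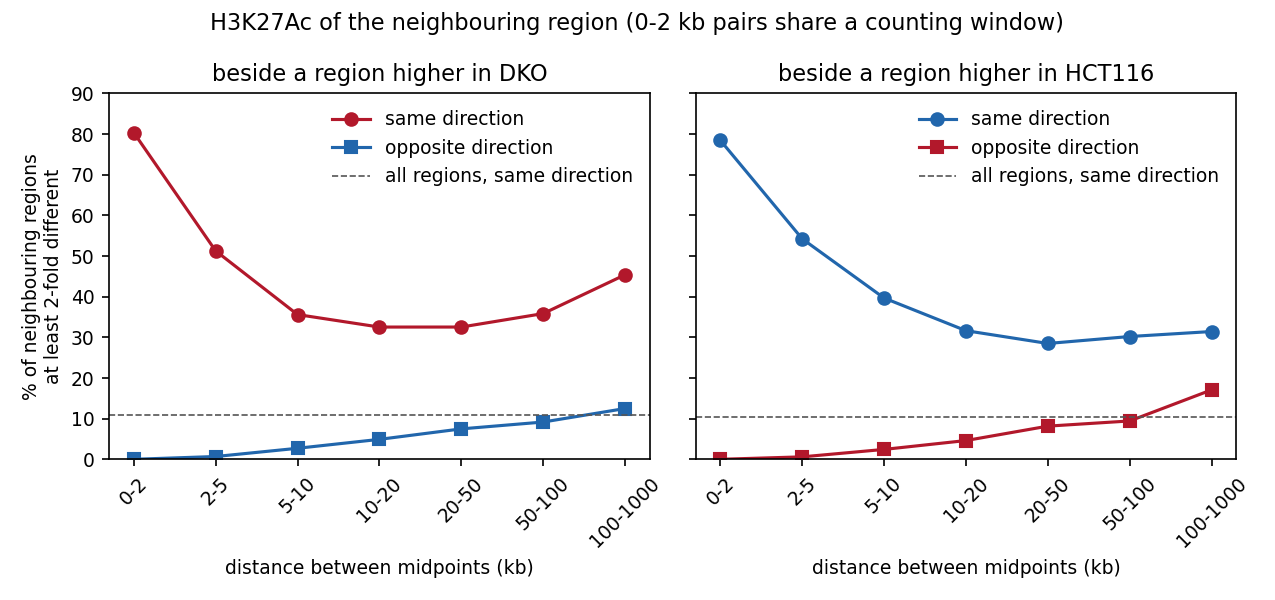
The percentage of neighbouring regions 2-fold different in the same direction (circles) or the opposite one (squares) is plotted against the distance between midpoints in kb, beside regions higher in DKO (left) and higher in HCT116 (right). At 2 to 5 kb 51.3% and 54.3% share the direction, far above the dashed lines of 11.0% and 10.4% for all regions.

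Runs of adjacent regions that all differed in the same direction held about as many regions in each direction. A string here is a set of consecutive regions all past 2-fold in 1 direction with gaps of at most 50 kb. There were 911 strings of 5 or more regions higher in DKO, which held 7296 regions (34.0% of those higher in DKO), and 834 higher in HCT116 with 7178 regions (35.2%). Their median spans were 11.9 kb and 15.8 kb. Strings of 20 or more regions numbered 29 in DKO and 41 in HCT116, and 28 and 26 strings spanned 100 kb or more. At the other end, 4095 regions higher in DKO and 4209 higher in HCT116 joined no other region in a string. Counting 1 region per window, 225 and 242 strings of 5 or more remained.

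The string with the most regions higher in DKO lay at chr15:32950061-33176862 and held 77 regions over 227 kb, of which 71 had been called in DKO only. Its median counts were 98 reads in DKO and 25 in HCT116, with log2 ratios from 1.05 to 5.00 and a median of 2.08. The regions just outside had log2 ratios of 0.98 (5.80 kb before, 64 and 39 reads) and 0.46 (25.4 kb after, 40 and 36 reads). By the definition of a string, a nearest region within 50 kb lies below 2-fold, so these values mark no boundary. Farther on, regions higher in DKO recurred among others below 2-fold. Log2 ratios were 2.40 at 336 kb and 3.24 at 584 kb from the start of the string. CTCF within the string had a median log2 ratio of 0.27 over 19 regions, while RAD21 had 1.11 over 45 regions, with 26 higher in DKO and none higher in HCT116. Pol2Ser5 was mixed, with 13 of 25 regions higher in DKO and 4 of them lower by 2-fold or more.

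The strings at chr2:113507502-113665264 (63 regions) and chr21:30447625-30663977 (60 regions) came next. Their median reads were 116 in DKO and 32 in HCT116 on chromosome 2, and 123.5 and 28 on chromosome 21. In both, CTCF stayed near equality, with median log2 ratios of -0.06 over 9 regions and -0.05 over 13 regions. The H3K27Ac medians of these strings were 2.00 and 2.30. CTCF regions were taken anywhere within a string and were not matched to single H3K27Ac regions. On chromosome 2, Pol2Ser5 was higher in DKO at 21 of 30 regions (median 1.82) and TotalRNAPol2 at 22 of 35 (1.27). The region beside the string on chromosome 21, 0.2 kb away, had 173 and 108 reads and a log2 ratio of 0.87.

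The longest string higher in DKO, chr13:80348830-80660329, spanned 311 kb and held 56 regions, none called in HCT116. Its median counts were 74.5 reads in DKO and 15 in HCT116 and its median log2 ratio was 2.71. The next regions on either side, 95.3 kb and 111 kb away, were also higher in DKO (3.32 and 3.06). Polymerase was scarce there, with 3 TotalRNAPol2 regions and 3 Pol2Ser2 regions, all higher in DKO, and 8 Pol2Ser5 regions of which 4 leaned to DKO and 3 to HCT116 by 2-fold or more. The remaining long strings were chr8:139739060-139966159 (22 regions, median 2.07) and chr10:44375189-44608382 (18 regions, median 2.32). On chromosome 10 Pol2Ser5 was higher in DKO at 11 of 12 regions (median 2.71) and TotalRNAPol2 at 10 of 11 (2.18). On chromosome 8 few polymerase regions were listed: Pol2Ser5 was higher in DKO at 1 of 4 (median -0.15) and TotalRNAPol2 at 2 of 3 (1.23). The string on chromosome 8 had no further region for 3021 kb before it. CTCF had medians of 0.91 on chromosome 8, with 7 of 17 regions higher in DKO, and 1.06 on chromosome 10, with 7 of 11. Within the string on chromosome 13 its median was 0.18, with 3 of 7 regions higher in DKO.

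**Figure D4:**
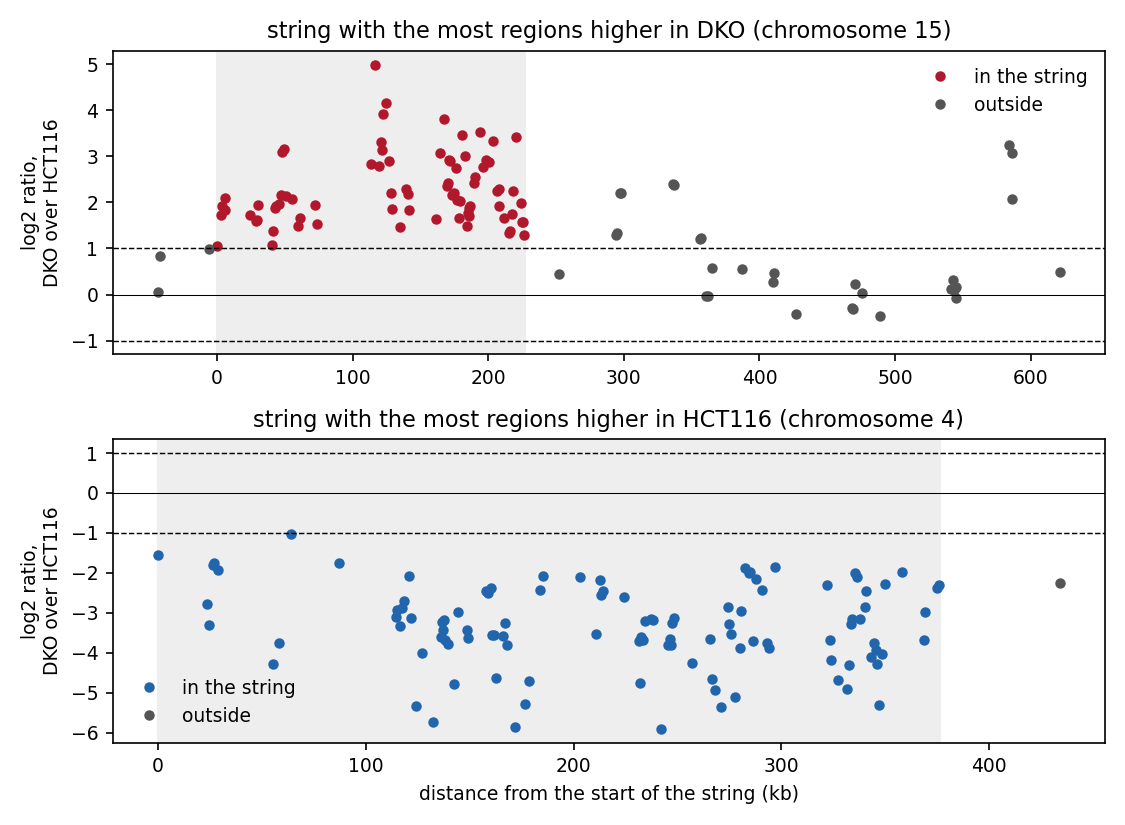
The log2 ratio of DKO over HCT116 for each H3K27Ac region is plotted by distance in kb from the start of the string with the most regions in each direction, with the string shaded and dashed lines at 2-fold. The 77 regions on chromosome 15 lie between 1.05 and 5.00, and the 108 on chromosome 4 between -5.91 and -1.03.

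The longest tract of all was higher in HCT116 and lay at chr4:11374402-11750701, with 108 regions over 376 kb, every one called in HCT116 only. Its regions had a median of 7.5 reads in DKO (range 2 to 44) and 94 in HCT116 (range 33 to 984), and a median log2 ratio of -3.30. Of these regions 97 were 4-fold or more higher in HCT116. All forms of polymerase were lower in DKO along it: 69 of 69 Pol2Ser5 regions, 63 of 65 Pol2Ser2 regions and 65 of 65 TotalRNAPol2 regions were 2-fold higher in HCT116, with medians of -3.65, -2.85 and -3.00. Pol2Ser2 is the form linked to elongation through gene bodies. The median CTCF counts over the 22 CTCF regions of the tract were 30 reads in DKO against 43.5 in HCT116. Their median log2 ratio was -1.60, with 13 higher in HCT116 and 1 higher in DKO. Fewer DNA copies of the tract in DKO cannot be told apart from less binding here.

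A second tract on the same chromosome, chr4:30715641-30966654, held 81 regions over 251 kb, all 81 of them 4-fold or more higher in HCT116. Its medians were 10 reads in DKO and 120 in HCT116, a log2 ratio of -3.26. Here too 69 of 69 Pol2Ser5 and 74 of 74 TotalRNAPol2 regions were higher in HCT116, as were 15 of 21 Pol2Ser2 regions. The string at chr2:226909662-227120786 held 66 regions over 211 kb with medians of 11.5 and 118 reads (-2.93). All 23 Pol2Ser5 and all 29 TotalRNAPol2 regions in it were higher in HCT116. Over the 3 tracts RAD21 was higher in HCT116 at 37 of 43, 22 of 31 and 9 of 11 regions. In each of them H3K27Ac, Pol2Ser5, TotalRNAPol2 and RAD21 were lower in DKO at most regions of the same stretch.

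Regions in strings differed more than lone ones but overlapped polymerase less often. Lone means joined to no other region in a string, not far from other regions. In all, 811 regions higher in DKO and 476 higher in HCT116 had no other midpoint within 50 kb. In strings of 5 or more regions the median log2 ratio was 1.80 toward DKO, against 1.28 for lone regions, and -1.80 toward HCT116, against -1.24. Membership in a string was set by the same values, so this is a description. Of regions higher in DKO, 29.8% overlapped a Pol2Ser5 region in strings and 48.9% when alone. For those higher in HCT116 the shares were 23.3% and 35.2%, and the overlap with CTCF showed the same order (21.0% and 35.5% in DKO, 18.1% and 34.1% in HCT116). Of all 195421 regions, 57355 overlapped Pol2Ser5 and 65566 overlapped CTCF, and of the similar regions 29.1% and 37.3% did. Against the similar regions, lone ones thus overlapped Pol2Ser5 more often, and regions in strings overlapped CTCF less often. Lone regions had a median width of 373 bp against 361 bp in strings among those higher in DKO, and 469 bp against 387 bp among those higher in HCT116.

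Joined at gaps of up to 10 kb, the regions formed 30650 clusters, of which 7300 held 6 or more regions. Of these larger clusters 2283 (31.3%) had no region past 2-fold, 2029 (27.8%) had at least 1 higher in DKO and none in HCT116, and 2206 (30.2%) the reverse. Both directions occurred within 782 (10.7%). At least 50% of the regions were higher in DKO in 591 clusters and higher in HCT116 in 695. Regions in large clusters differed less often: among regions in clusters of 21 or more, 7.16% were higher in DKO and 6.15% in HCT116, against 19.3% and 14.8% of regions with no other within 10 kb. Those isolated regions also had fewer reads (medians of 42 and 49, against 90 and 107).

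Chromosomes differed in the balance of the directions. Chromosome 4 had 13.2% of its 6326 regions higher in DKO and 23.2% higher in HCT116, and a median log2 ratio of -0.23. Of its 1469 regions higher in HCT116, 470 lay in 18 strings of 10 or more regions. Chromosomes 20, 21 and 15 leaned the other way, with 2.45, 2.30 and 2.14 regions higher in DKO for each one higher in HCT116, against 0.568 on chromosome 4. Their median log2 ratios were 0.11, 0.08 and 0.03, against 0.13, 0.14 and 0.05 where both lines had a call. A shift shared by a whole chromosome also contains any difference in its copy number, which cannot be told apart here.

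Regions near the ends of autosomes were less often higher in HCT116. Within 5 Mb of the first or last region listed on a chromosome, 9.85% of 36233 regions were higher in DKO and 6.08% were higher in the parent line HCT116. At 10 to 15 Mb from an end the shares were 11.5% and 8.73%, at 15 to 20 Mb 9.93% and 13.0%, and beyond 30 Mb 11.8% and 12.3%. At a 4-fold difference the contrast was wider, with 0.803% higher in HCT116 in the outer 5 Mb and 3.57% beyond 30 Mb. The share 4-fold higher in DKO was 3.02% and 3.46% at the same distances. Median reads in the outer 5 Mb were 91 in DKO and 108 in HCT116, against 75 and 89 beyond 30 Mb. The shares also changed with the local number of regions, given below, and its part in the pattern at the ends was not tested.

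The sparsest parts of the autosomes leaned toward DKO. In 2 Mb bins that held at most 10 H3K27Ac regions, 371 of 755 regions (49.1%, Wilson 95% interval 45.6 to 52.7) were higher in DKO and 103 (13.6%, 11.4 to 16.3) higher in HCT116, with a median log2 ratio of 0.90 and median reads of 59 and 33. With 11 to 20 regions in the bin the shares were 29.3% and 21.6%. With 21 to 50 regions the order turned, to 20.8% and 24.8%, and with 51 to 100 it was 16.5% and 20.1%. In bins of 501 or more regions 6.20% were higher in DKO and 3.98% in HCT116. The lean in the sparsest bins was carried by regions called in 1 line: of the 145 regions called in both, 4.83% were higher in DKO and 6.21% in HCT116.

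**Figure D5:**
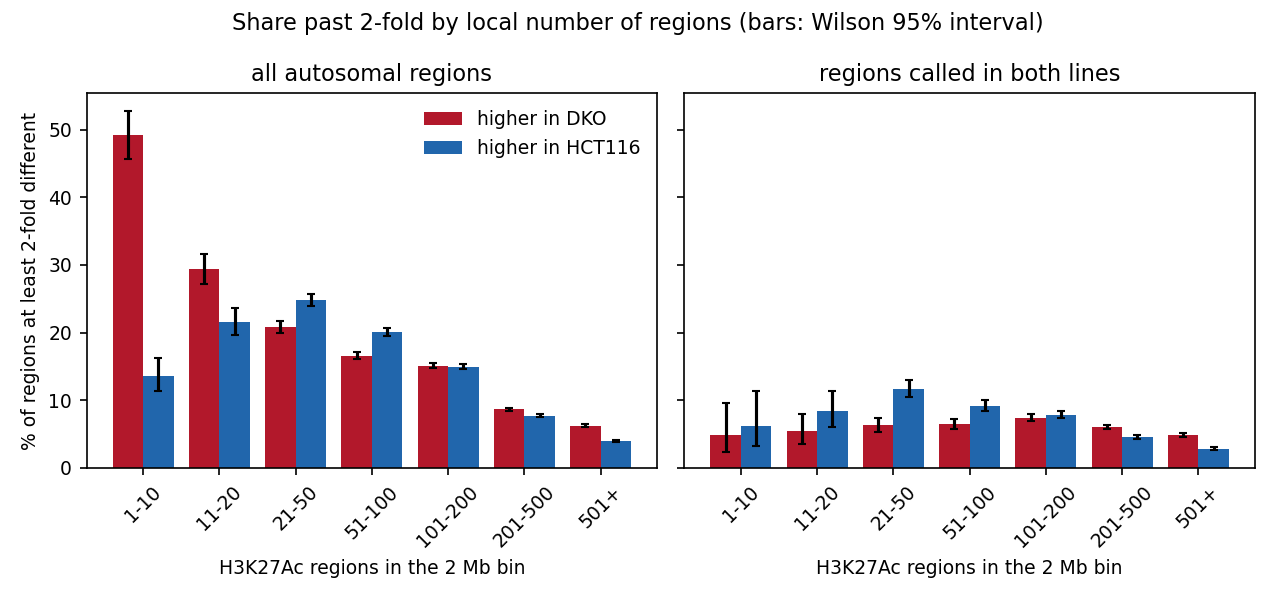
Bars give the percentage of autosomal regions at least 2-fold higher in DKO (red) and in HCT116 (blue) by the number of H3K27Ac regions in their 2 Mb bin, for all regions (left) and for those called in both lines (right), with Wilson 95% intervals. In bins of 1 to 10 regions 49.1% were higher in DKO, against 4.83% of those called in both lines, a call that rests on the same reads as the ratio.

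The other targets did not all share this lean. In the same sparsest bins 30.6% of 4681 CTCF regions, 34.8% of 3614 RAD21 regions and 20.0% of 2738 SMC1 regions were higher in DKO, against 10.2%, 7.44% and 11.7% higher in HCT116. Among all CTCF regions 20.1% were higher in DKO and 6.33% in HCT116, among all RAD21 regions 13.7% and 8.70%, and among all SMC1 regions 9.36% and 4.67%. The polymerase forms were divided. Pol2Ser5 leaned to HCT116, with 62.1% of 2075 regions higher in HCT116 and 12.7% higher in DKO. Among all Pol2Ser5 regions 21.0% were higher in HCT116 and 14.9% in DKO. Pol2Ser2 leaned to DKO, with 31.2% of 2669 regions higher in DKO and 17.0% in HCT116, against 18.6% and 10.9% of all Pol2Ser2 regions. TotalRNAPol2 had 26.2% and 21.4% of 1089 regions, against 20.7% and 10.2% of all its regions. Of the other 6 targets Pol2Ser5 alone had more regions higher in HCT116 than in DKO in these bins, and the regions of different targets need not coincide.

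Of 1235 autosomal bins with at least 8 regions, 143 had a median log2 ratio of 0.5 or more and 190 one of -0.5 or less. The highest were sparse: the bin at 18 to 20 Mb of chromosome 5 had a median of 4.64 over 13 regions (84 and 4 reads), and the bin at 26 to 28 Mb of chromosome 14 had 4.48 over 11 regions (86 and 4 reads). The others were at 40 to 42 Mb of chromosome 11 (4.38), 18 to 20 Mb of chromosome 14 (4.22) and 24 to 26 Mb of chromosome 15 (4.13). In the first 3 of these bins CTCF had median log2 ratios of 1.19, 2.09 and 1.80 while Pol2Ser5 had -1.67, -0.89 and -1.89. Pol2Ser2 had 1.57, 1.38 and -0.15 in these bins, and TotalRNAPol2 had 1.17, 1.73 and -0.37 over 4, 4 and 3 regions. On chromosome 14 at 18 to 20 Mb Pol2Ser5, Pol2Ser2 and TotalRNAPol2 had 2.96, 4.29 and 4.17. The bins of highest ratio thus differed among themselves in polymerase.

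The lowest bins included long tracts. The bin at 30 to 32 Mb of chromosome 4 had a median of -3.12 over 147 regions, of which 142 were higher in HCT116 and none higher in DKO. The bin at 10 to 12 Mb of the same chromosome had -2.42 over 171 regions, of which 115 were higher in HCT116 and 8 in DKO. The others were at 12 to 14 Mb of chromosome 2 (-2.83, 13 regions), 92 to 94 Mb of chromosome 5 (-2.43, 53 regions) and 40 to 42 Mb of chromosome 14 (-2.33, 10 regions). CTCF medians in these bins ranged from -0.88 to 0.23 and those of RAD21 from -1.13 to 0.16. The bins were picked by H3K27Ac and each target was scaled on its own. The size of the difference is therefore not compared between targets. Among regions called in both lines, 24 of 969 bins had a median of 0.5 or more and 46 had -0.5 or less.

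Overlap with the other targets, taken as at least 1 shared bp, sorted the H3K27Ac regions by how often they differed. Of the 57355 that overlapped a Pol2Ser5 region, 15.0% were higher in DKO and 9.44% in HCT116. Where at least 50% of the region was covered by Pol2Ser5, 15.9% were higher in DKO and 4.97% in HCT116. Overlap with TotalRNAPol2 gave 12.9% and 10.0%, and 13.3% and 5.53% at 50% covered. Of the 65566 that overlapped CTCF the shares were 8.99% and 7.57%, and with CTCF but no polymerase (23441 regions) 5.38% and 7.05%. The 72370 regions with no other target had 11.2% and 11.9%, and the 18535 with all 6 had 11.0% and 6.07%. Pol2Ser5 without CTCF gave the largest share higher in DKO of these groups, 17.6% of 25327 regions. In every density class regions with Pol2Ser5 were more often higher in DKO than those without: 36.0% against 18.3% in the lowest class, and 9.78% against 3.58% in the highest. In classes 2 to 5 they were also more often higher in HCT116 (7.04% against 3.56% in the highest), while in the lowest class they were less so (22.6% against 25.4%).

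Where H3K27Ac differed 4-fold, Pol2Ser5 and TotalRNAPol2 differed 2-fold in the same direction at most overlapping regions. At regions 4-fold higher in DKO the median log2 ratio of Pol2Ser5 was 2.55 over 3098 overlaps, with 84.5% higher in DKO, and TotalRNAPol2 had 2.36 over 2979, with 83.5%. Among the overlaps of all H3K27Ac regions, 23.8% (Pol2Ser5) and 32.4% (TotalRNAPol2) were higher in DKO. CTCF followed with 1.59, then Pol2Ser2 with 1.52, RAD21 with 1.10 and SMC1 with 0.96. At regions 4-fold higher in HCT116 Pol2Ser5 had -2.27 over 1669 overlaps, with 86.9% higher in HCT116, and TotalRNAPol2 had -1.64 over 2116, with 80.2%. Among the overlaps of all H3K27Ac regions 10.3% and 8.24% were higher in HCT116. The other medians were RAD21 -1.03, Pol2Ser2 -0.95, CTCF -0.90 and SMC1 -0.84. Pol2Ser2, higher in DKO at 67.0% of overlaps with regions 4-fold higher in DKO, was higher in HCT116 at 47.7% of those with regions 4-fold higher in HCT116. At a 2-fold difference of H3K27Ac its shares were 47.4% and 29.8%. Among the Pol2Ser2 overlaps of all H3K27Ac regions, 26.6% were higher in DKO and 7.52% in HCT116, so the directions were unequal from the start. Over all H3K27Ac regions the medians were 0.55 for TotalRNAPol2, 0.44 for Pol2Ser2, 0.33 for CTCF and 0.26 for Pol2Ser5. They were 0.13 for SMC1 and -0.03 for RAD21. All targets but RAD21 were thus centred above 0 before any choice of regions.

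Seen from both lists, the overlap was uneven. Of 8622 H3K27Ac regions higher in DKO with a Pol2Ser5 overlap, 5944 (68.9%) were matched by Pol2Ser5 higher in DKO, and these made up 43.5% of the 13678 overlaps in which Pol2Ser5 was higher in DKO. Only 90 had Pol2Ser5 higher in HCT116. For HCT116, 3443 of 5412 (63.6%) matched, or 58.2% of the 5920 overlaps in which Pol2Ser5 was higher in HCT116, and 101 were opposite. The matched shares of CTCF differed more between the directions. Among the CTCF overlaps of all H3K27Ac regions, 22.3% were higher in DKO and 4.04% in HCT116, so the directions were unequal before any choice of regions. CTCF was higher in DKO at 2955 of 5893 regions with acetylation higher in DKO (50.1%), which is 20.3% of the 14592 overlaps with CTCF higher in DKO. It was higher in HCT116 at 1230 of 4964 regions with acetylation higher in HCT116 (24.8%), which is 46.5% of 2647 such overlaps.

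Some overlaps differed in polymerase or CTCF while H3K27Ac was similar. At the regions with similar H3K27Ac, 28.7% of TotalRNAPol2 overlaps, 25.1% of Pol2Ser2 overlaps and 19.8% of CTCF overlaps were 2-fold higher in DKO, while 6.48% of SMC1 and 6.34% of RAD21 overlaps were. Among the overlaps of all H3K27Ac regions these shares were 32.4%, 26.6%, 22.3%, 9.43% and 9.64% in that order, so each was lower where H3K27Ac was similar. The first 3 were higher in HCT116 at 2.63%, 5.06% and 1.92% of overlaps with similar regions, against 8.24%, 7.52% and 4.04% of all overlaps. A similar H3K27Ac density thus went with a 2-fold difference of TotalRNAPol2, Pol2Ser2 or CTCF at a part of the overlaps. Each table was scaled on its own, and the part of that scaling in these shares was not tested.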

How the data were processed

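Chromatin of both lines was immunoprecipitated and sequenced as single-end reads, per the labels' protocols, with 1 H3K27Ac library per line. Reads were aligned to hg19 with BWA and regions called with MACS2, per the submitters' processing notes. Tool versions and peak cutoffs: not given in the sources used here. The deposited table gives, per the file headers, each region's normalized read density (a signal) in each line, the log2 ratio M, the mean log2 density A, a p-value and whether the region was called in 1 line or both.

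The ratio was recomputed from the density columns. Whole reads were recovered from M and A: after a straight line in A (slope 0.0599, intercept -0.56), 100% of values were whole within 0.05, with 1 added to each count in a 2 kb window, both inferred from the values. The other 6 tables, each scaled separately, were used only for overlap. Exact Clopper-Pearson 95% intervals of M and Wilson 95% intervals of shares were computed with Python 3.11.15, numpy 2.4.6, pandas 2.3.3 and scipy 1.17.1. The intervals of M cover counting error only, and PCR reads are not independent molecules. The Wilson intervals treat regions as independent, although 78.5% of regions shared reads with a neighbour, so they are likely too narrow. No test was made, with 1 library per group, and the authors' p-value served 1 alternative filter. The scripts were tested on simulated data.

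Regions named in the text are the 10 highest and 10 lowest ratios among regions whose higher density reached the table's median (1 per 50 kb), the 3 densest similar regions, and the extremes called in both lines. For each direction the 3 strings with the most regions and the 3 longest are named, with the 5 highest and 5 lowest 2 Mb bins. Gene and cell marker lists that had been written down could not be placed, since an hg19 annotation was not used here. The regions and lists were chosen with earlier results of these data known.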

Additional observations from a re-analysis of the deposited data

How the results depend on the processing

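No paired analysis was possible because each line had 1 library per target, and for the same reason no replicate could be left out. Of 58 alternatives to 8 reported counts, 32 changed the count by at most 1.5 times and 26 by more. The 18 alternatives to 18 reported shares all moved the share beyond its Wilson interval, which treats regions as independent. The number of regions 2-fold higher in DKO (21454) and in HCT116 (20404) became 3645 and 3231 when called in both lines, 12707 and 9578 at or above the median density, 11750 and 11670 with 1 region per window, 12481 and 9851 with the authors' deposited p-value under 1e-05, 38228 and 41339 at 1.5-fold, and 6391 and 5249 at 4-fold. Strings of 5 or more regions (911 and 834) became 225 and 242 with 1 region per window, and 1958 and 2011 at 1.5-fold. The autosomal bins with a median log2 ratio of 0.5 or more (143) and -0.5 or less (190) became 293 and 360 with 1 Mb bins, 45 and 67 with 5 Mb bins, and 24 and 46 when only regions called in both lines entered. In bins of at most 10 regions, 371 higher in DKO and 103 higher in HCT116 became 7 and 9 when called in both lines and 116 and 22 at or above the median density, settings chosen after the data were seen. Fewer regions entering, another fold or another bin size each change a count by construction. With regions called in both lines the shares changed too, from 11.0% and 10.4% to 5.88% higher in DKO and 5.21% in HCT116. In the bins of at most 10 regions they went from 49.1% and 13.6% to 4.83% and 6.21%. With density classes by the higher density, the shares higher in DKO and in HCT116 became 9.45% and 12.8% in the lowest class and 16.6% and 11.5% in the highest. With 50% of a region covered, in place of 1 bp, they became 7.99% and 5.80% (CTCF), 8.46% and 6.61% (RAD21), 9.16% and 5.91% (SMC1), 15.9% and 4.97% (Pol2Ser5), 8.85% and 5.79% (Pol2Ser2), 13.3% and 5.53% (TotalRNAPol2), and 11.5% and 13.7% with no other target. The order of the directions stayed as reported for each target. The cause of these shifts was not tested. A region of few reads had a wide interval, so small differences were not detectable there.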
